A study of Mus musculus with 6 samples.

Results

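The 10 genes described here belong to the transcriptional arm of the Hippo pathway: Yap1 and Wwtr1, which encode the coactivators YAP and TAZ; Tead1, which encodes a DNA-binding partner of both; and Ccn1, Ccn2, Ankrd1, Amotl2, Lats2, Ajuba and Axl, which are known targets or regulators of YAP and TAZ. They were chosen by name, and all 10 were found among the 15238 genes of the deposited table, where Ccn1 and Ccn2 are listed under their older names Cyr61 and Ctgf. RNA was sequenced in bulk from intestinal fibroblasts of Balb/c pups at postnatal day 9, with 3 libraries from DdblGata1 pups (numbered 4, 9 and 10) and 3 from wild-type pups (numbered 1, 3 and 4). DdblGata1 mice lack a doubled GATA-binding site in the Gata1 promoter and so make no eosinophils; the allele is carried in every cell, and the labels name no drug or other agent beyond the tissue preparation common to all groups. Epithelium was stripped with EDTA, the rest of the tissue was digested with Liberase and DNase, and cells positive for podoplanin and negative for CD45, EpCAM and CD31 were sorted. The labels give neither sex nor litter and do not say whether each library came from a single pup, so the spread between libraries may be partly technical.

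In the Hippo pathway the kinases MST1/2 activate LATS1/2, which phosphorylate YAP and TAZ and keep them out of the nucleus. When the kinases are less active, or when cells spread on a stiff matrix and build actin fibres, YAP and TAZ enter the nucleus, bind TEAD proteins and switch on genes for matricellular proteins, for a stretch-induced cofactor and for inhibitors that feed back on the pathway. In the gut mesenchyme YAP and TAZ are known for their roles in smooth muscle development and in fibrosis. The pathway is regulated largely by phosphorylation and localisation of the proteins, neither of which is measured by RNA levels.

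Of the 10 genes, none differed between DdblGata1 and wild-type fibroblasts past an adjusted or an unadjusted p of 0.05 (edgeR quasi-likelihood test, Benjamini-Hochberg adjustment over 15238 genes). Over all genes 0.0% passed the adjusted and 10.3% (1564 genes) the unadjusted threshold. For all 10 genes the values of the 3 DdblGata1 libraries overlapped those of the 3 wild-type libraries, whereas 16.3% of all genes did not overlap. DESeq2 called 1.51% of the genes to which it gave an adjusted p (216 genes) and put 12.0% past an unadjusted p of 0.05, and none of the 10 was among either; its adjusted p for them lay between 0.464 for Ajuba and 0.99 for Tead1, with none given for Ankrd1. The count was again 0 of 10 without wild-type 1, which had high epithelial markers (below), where 1199 of 15238 genes passed the unadjusted threshold. It was also 0 of 10 with the class of fragment length as a covariate, which put 7.52% of all genes past it. The count was 2 without DdblGata1 4 (Ccn2 and Ajuba), where 17.8% of all genes passed. It was 1 without wild-type 3 (Axl), where 9.21% passed. The 95% intervals of the differences were narrow for the coactivators and Tead1 and wide for several of the targets.

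TEAD proteins bind the sequence GGAATG, so the start regions of the genes were searched for it to show where such a sequence lies in each. The windows were the 250 bases upstream of the RefSeq gene start (GRCm38.p6), and GGAATG was searched on both strands, where the reverse strand reads CATTCC. A window was at hand for 8 of the 10 genes, Tead1 and Ccn2 being the others, and 7 of the 8 held the motif. It was in 12.6% of all 32851 windows and, taking any window of a gene, in 14.4% of 27025 gene symbols. Lats2 was the gene with windows but no match. Its windows lie inside the gene's GENCODE M21 span, so the region upstream of that span was not searched. The windows of Ankrd1 and Amotl2 also lie inside the GENCODE M21 span of their own genes. Their matches below are thus upstream of the RefSeq start alone. A match of these 6 letters, motif in capitals below, describes the sequence and does not show that a TEAD protein binds there. The 30 bases around each match are given 5′ to 3′ on the strand of the gene:

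Yap1, 141 bases upstream, minus strand, chr9:8004720-8004749: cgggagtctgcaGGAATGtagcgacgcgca
Wwtr1, 136 bases upstream, minus strand, chr3:57576029-57576058: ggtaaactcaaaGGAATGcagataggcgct
Ccn1, 103 bases upstream, minus strand, chr3:145650071-145650100: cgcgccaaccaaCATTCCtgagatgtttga
Ankrd1, 210 bases upstream, minus strand, chr19:36120037-36120066: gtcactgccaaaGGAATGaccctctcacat
Ankrd1, 123 bases upstream, minus strand, chr19:36119950-36119979: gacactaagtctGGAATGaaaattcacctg
Amotl2, 65 bases upstream, plus strand, chr9:102717727-102717756: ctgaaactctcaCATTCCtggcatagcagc
Ajuba, 186 bases upstream, minus strand, chr14:54577830-54577859: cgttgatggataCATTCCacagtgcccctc
Ajuba, 164 bases upstream, minus strand, chr14:54577808-54577837: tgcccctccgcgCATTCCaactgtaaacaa
Axl, 233 bases upstream, minus strand, chr7:25788949-25788978: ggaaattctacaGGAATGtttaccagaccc

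The longer windows of Ccn1 and Axl, the 2 most abundant of the 10 transcripts, are shown to give the setting of these matches. Those of the coactivator genes Yap1 and Wwtr1 are shown as well. None of the 4 windows overlaps the GENCODE M21 span of its own gene. Each runs 5′ to 3′ on the minus strand and ends at the base before the RefSeq start.
Ccn1, chr3:145649986-145650235: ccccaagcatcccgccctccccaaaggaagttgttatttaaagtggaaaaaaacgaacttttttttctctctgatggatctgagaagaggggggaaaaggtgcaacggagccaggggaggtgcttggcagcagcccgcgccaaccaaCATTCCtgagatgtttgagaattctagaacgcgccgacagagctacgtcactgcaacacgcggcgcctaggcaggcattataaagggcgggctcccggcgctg
Axl, chr7:25788734-25788983: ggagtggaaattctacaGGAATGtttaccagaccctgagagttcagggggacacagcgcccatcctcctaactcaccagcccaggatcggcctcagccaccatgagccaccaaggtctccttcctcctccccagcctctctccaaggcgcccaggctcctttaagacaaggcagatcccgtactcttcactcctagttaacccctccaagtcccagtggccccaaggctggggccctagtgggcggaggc
Yap1, chr9:8004597-8004846: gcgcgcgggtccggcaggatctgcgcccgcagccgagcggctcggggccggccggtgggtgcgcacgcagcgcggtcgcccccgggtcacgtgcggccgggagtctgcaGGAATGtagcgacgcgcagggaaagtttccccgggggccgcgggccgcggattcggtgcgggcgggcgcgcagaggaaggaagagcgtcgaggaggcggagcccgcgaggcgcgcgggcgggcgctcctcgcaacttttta
Wwtr1, chr3:57575911-57576160: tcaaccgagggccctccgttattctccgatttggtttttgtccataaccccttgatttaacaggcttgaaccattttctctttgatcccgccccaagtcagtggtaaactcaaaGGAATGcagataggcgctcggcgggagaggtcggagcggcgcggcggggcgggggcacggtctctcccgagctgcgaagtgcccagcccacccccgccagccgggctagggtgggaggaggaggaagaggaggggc

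The 6 libraries held between 28110454 and 31210800 counts over the gene table. The 7 fibroblast markers, among them Pdpn, Pdgfra and Col1a1, were all measured and summed to 106000 to 146000 CPM in DdblGata1 and 107000 to 153000 CPM in wild-type libraries (CPM are counts scaled to a common library total with edgeR's TMM factors), so the cells carried the markers of their label. Gata1 itself, whose promoter the allele alters, had an estimated count of 0 in every library except wild-type 1, where it was 1. It thus gave no check of genotype. The eosinophil granule gene Epx was at 0 in all 6. Other eosinophil markers were low but not at 0. Estimated counts of Prg2 were 0, 26 and 11 in DdblGata1 4, 9 and 10, against 7, 3 and 2 in wild-type 1, 3 and 4. Il5ra had 1, 11 and 14 against 4, 7 and 1, and Siglecf 6, 1 and 7 against 16, 6 and 5. Ccr3 had 7, 5 and 8 against 23, 32 and 10, lower without overlap, as were 7.34% of all genes in CPM. Wild-type 1 stood apart in the 8 epithelial markers, all of them measured, which summed to 202 to 276 CPM in DdblGata1 libraries, to 1060 CPM in wild-type 1 and to 184 and 179 CPM in wild-type 3 and 4. Its 9 measured leukocyte markers of 10 summed to 103 CPM, against 35.5 to 51.0 CPM in the other 5 libraries. Its 7 enteric glia and neuron markers summed to 103 CPM, against 146 to 269 CPM in the other 5. The 3 markers of interstitial cells of Cajal summed to 162 CPM in DdblGata1 4, against 365 to 570 CPM in the other 5. The part of these markers in the levels of the 10 genes was not tested. The deposited effective lengths also show 2 classes of mean fragment length, which no label names: 363 to 364 bases in DdblGata1 4 and wild-type 1 and 4, and 326 to 341 bases in DdblGata1 9 and 10 and wild-type 3. In bulk RNA, fewer cells of a type and less RNA per cell cannot be told apart.

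Levels of different genes were compared per length, in TPM, which divides counts by transcript length and scales them to a common total, summed over each gene's transcripts of at least 1000 bases. Ccn1 was the most abundant, with a mean of 298.0 TPM over the 6 libraries (percentile 98.6 of genes), followed by Axl with 256.5 TPM (percentile 98.3), and the library ranges of these genes overlapped. Wwtr1 averaged 80.8 TPM and Yap1 53.9 TPM, and every library had more Wwtr1 than Yap1. Amotl2 at 47.1 and Ccn2 at 46.7 TPM did not differ beyond their spread, nor did Lats2 at 28.2 and Tead1 at 26.7 TPM. The order depended on this choice: with shorter transcripts included, Axl averaged 370.3 TPM and Amotl2 91.4 TPM, so that Axl stood above Ccn1 and Amotl2 above Ccn2, Yap1 and Wwtr1 in their means. Ajuba averaged 10.2 TPM, near the middle of all genes (percentile 50.6). Ankrd1 was close to the bottom with 0.446 TPM (percentile 6.8).

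**Figure D1:**
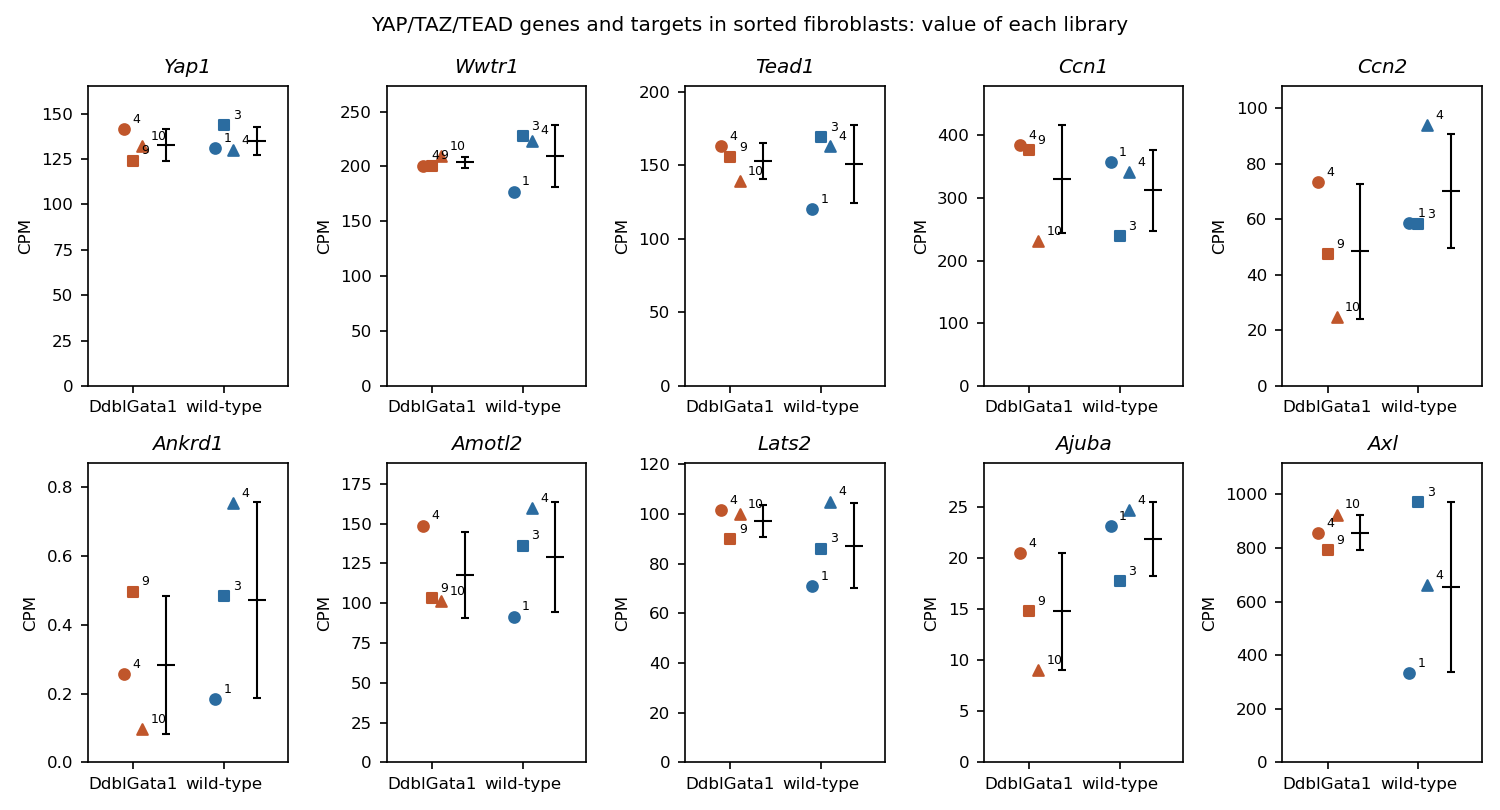
CPM (y axis, from 0) of each of the 10 genes in the 3 DdblGata1 libraries (orange) and the 3 wild-type libraries (blue), each point labelled with its library number; black marks show the mean and SD of each genotype. The points of the genotypes overlap in every panel; wild-type 1 is lowest for 5 genes and DdblGata1 10 for 4.

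The coactivator Yap1 (ENSMUSG00000053110, chr9:7931999-8004596, minus strand, GRCm38) had 141.6, 124.2 and 132.1 CPM in DdblGata1 libraries 4, 9 and 10, against 130.9, 143.7 and 129.8 CPM in wild-type libraries 1, 3 and 4. All 6 values lay close together, the highest being 1.16 times the lowest. Its mean was 133 ± 8.74 CPM in DdblGata1 and 135 ± 7.73 CPM in wild-type fibroblasts (SD, n = 3 each). The log2 fold change was -0.02 ± 0.13 (SE), with a 95% interval of -0.32 to 0.28 and an adjusted p of 0.955 by edgeR. Yap1 was among the steadiest genes measured: its SD of log2 CPM within a genotype was 0.088, and 3.1% of genes had a smaller one.

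Wwtr1, which encodes the YAP paralogue TAZ (ENSMUSG00000027803, chr3:57455649-57575910, minus strand), had 200.7, 200.8 and 209.5 CPM in DdblGata1 libraries 4, 9 and 10, against 177.0, 227.9 and 223.5 CPM in wild-type libraries 1, 3 and 4. The DdblGata1 values fell inside the wider wild-type range, of which wild-type 1 was the low end. The log2 fold change was -0.04 ± 0.15 (SE), with a 95% interval of -0.38 to 0.30 (adjusted p = 0.928, edgeR). Of the summed Yap1 and Wwtr1 TPM, Yap1 made up 40.2% ± 1.72 in DdblGata1 and 40.0% ± 2.98 in wild-type fibroblasts (SD, n = 3 each). The balance of the coactivator messages thus differed by less than the spread between libraries.

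Tead1, the DNA-binding partner (ENSMUSG00000055320, chr7:112679318-112906807, plus strand), had 163.2, 155.6 and 139.3 CPM in DdblGata1 libraries 4, 9 and 10, against 120.2, 168.9 and 163.0 CPM in wild-type libraries 1, 3 and 4. Wild-type 1 was again the lowest library, and the other 5 lay between 139.3 and 168.9 CPM. The log2 fold change was 0.02 ± 0.17 (SE), with a 95% interval of -0.37 to 0.41 (adjusted p = 0.972, edgeR). Over transcripts of at least 1000 bases, the mean levels of Tead1, Tead2 and Tead3 were 26.7, 31.4 and 25.7 TPM, and that of Tead4 was 0.720 TPM. With the shorter transcripts included, Tead1 and Tead3 were at 27.3 and 27.0 TPM but Tead2 at 145.7 TPM, so the near-equal parts of the 3 hold for long transcripts alone. On that scale Tead1 made up 34.3% ± 2.30 of TEAD transcripts in DdblGata1 and 29.3% ± 5.43 in wild-type fibroblasts (SD, n = 3 each), the lowest share being 23.0% in wild-type 1. Tead2 had 42.13, 53.78 and 50.82 CPM in DdblGata1 libraries, against 55.75, 63.07 and 59.53 CPM in wild-type libraries. These CPM did not overlap, being lower in DdblGata1, as was so for 7.34% of all genes. Over long transcripts Tead2 did overlap, with 35.88, 29.18 and 22.85 TPM against 35.1, 28.96 and 36.27 TPM. The log2 fold change of Tead2 was -0.28 ± 0.15 (adjusted p = 0.529, edgeR).

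The matricellular targets came next. CCN proteins are secreted into the matrix, where they bind integrins and growth factors. Ccn1 (listed as Cyr61, ENSMUSG00000028195, chr3:145646976-145649981, minus strand) had 383.8, 375.8 and 230.6 CPM in DdblGata1 libraries 4, 9 and 10, against 357.2, 238.5 and 340.9 CPM in wild-type libraries 1, 3 and 4. Each genotype had 2 higher libraries and 1 lower one, the lower ones being DdblGata1 10 and wild-type 3, the libraries with the shortest fragments (326 and 329 bases). The log2 fold change was 0.08 ± 0.24 (SE), with a 95% interval of -0.48 to 0.64 (adjusted p = 0.915, edgeR). Within the fragment-length classes the log2 CPM was higher in DdblGata1 libraries by 0.14 among longer fragments and by 0.30 among shorter ones. With the class as a covariate the log2 fold change was 0.24 ± 0.22 (adjusted p = 0.846, edgeR).

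Ccn2 (listed as Ctgf, ENSMUSG00000019997, chr10:24595442-24598683, plus strand) had 73.41, 47.56 and 24.76 CPM in DdblGata1 libraries 4, 9 and 10, against 58.56, 58.28 and 93.95 CPM in wild-type libraries 1, 3 and 4. DdblGata1 9 and 10 lay below every wild-type library, whereas DdblGata1 4 lay above wild-type 1 and 3. The mean was 48.6 ± 24.3 CPM in DdblGata1 and 70.3 ± 20.5 CPM in wild-type fibroblasts (SD, n = 3 each). The log2 fold change was -0.53 ± 0.37 (SE), with a 95% interval of -1.39 to 0.33 (adjusted p = 0.609, edgeR), so that values well below and somewhat above 0 were both inside it. The difference in log2 CPM was -0.02 among longer-fragment libraries and -0.76 among shorter ones, and -0.37 ± 0.31 with the class as a covariate (adjusted p = 0.83, edgeR). Without DdblGata1 4 it was -0.96 ± 0.35 (adjusted p = 0.238, edgeR; over all alternatives the adjusted p ranged from 0.238 to 0.928) and past the unadjusted threshold, as were 17.8% of all genes in that fit. Without DdblGata1 10 it was -0.23 ± 0.29.

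Ankrd1, a nuclear and sarcomeric ankyrin-repeat protein that is induced by stretch and often used as a readout of YAP (ENSMUSG00000024803, chr19:36111961-36120099, minus strand), was barely expressed. Its counts were 7, 15 and 3 in DdblGata1 libraries 4, 9 and 10, against 6, 14 and 23 in wild-type libraries 1, 3 and 4. Values this low spread widely in both genotypes, and the log2 fold change of -0.73 ± 0.76 had a 95% interval of -2.47 to 1.01 (adjusted p = 0.732, edgeR). A difference in Ankrd1 was not detectable at this depth.

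Axl, a receptor tyrosine kinase of the TAM family and a YAP target (ENSMUSG00000002602, chr7:25757273-25788705, minus strand), had 855.7, 793.1 and 924.3 CPM in DdblGata1 libraries 4, 9 and 10, against 333.7, 970.3 and 660.8 CPM in wild-type libraries 1, 3 and 4. The DdblGata1 values lay within a narrow band, and wild-type 1 and 4 lay below it while wild-type 3 lay above. The mean was 858 ± 65.6 CPM in DdblGata1 and 655 ± 318 CPM in wild-type fibroblasts (SD, n = 3 each). The log2 fold change was 0.39 ± 0.34 (SE), with a 95% interval of -0.39 to 1.17 (adjusted p = 0.68, edgeR). It was 0.05 ± 0.21 without wild-type 1, the library with the high epithelial and leukocyte markers, and 0.79 ± 0.30 without wild-type 3 (adjusted p = 0.525, edgeR), where it passed the unadjusted threshold along with 9.21% of all genes. The part of those markers in the Axl level was not tested.

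The order of the Axl values depended on the unit. On the scale of TPM over transcripts of at least 1000 bases, Axl had 345.0, 265.2 and 305.1 TPM in DdblGata1 libraries 4, 9 and 10, against 141.8, 256.7 and 225.0 TPM in wild-type libraries 1, 3 and 4. There the genotypes did not overlap, as was the case for 18.7% of the 14492 genes with such transcripts. The difference on the log2(TPM + 1) scale was 0.59 ± 0.23 (limma-trend, adjusted p = 0.375) and passed the unadjusted threshold, as did 12.4% of genes. Over all alternatives the adjusted p of Axl ranged from 0.375 to 0.961. From unscaled sums of the transcript counts the log2 fold change was 0.47 ± 0.24 (adjusted p = 0.451, edgeR). The other TAM receptors and their ligands were at -0.21 for the ligand gene Gas6, 0.20 for Mertk, 0.04 for Tyro3 and -0.01 for Pros1, where Tyro3 turned to -0.25 from unscaled transcript sums and Pros1 to 0.09 on TPM of long transcripts, and 0 of the 5 genes of this list passed an unadjusted p of 0.05.

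The remaining 3 genes encode proteins that act back on the pathway. Amotl2, an angiomotin-like protein that holds YAP at junctions (ENSMUSG00000032531, chr9:102716672-102733418, plus strand), had 148.8, 103.2 and 101.1 CPM in DdblGata1 libraries 4, 9 and 10, against 91.59, 136.2 and 159.8 CPM in wild-type libraries 1, 3 and 4. The values of the genotypes overlapped widely, and the log2 fold change was -0.13 ± 0.24, with a 95% interval of -0.69 to 0.42 (adjusted p = 0.849, edgeR). Lats2, the kinase that phosphorylates YAP and TAZ and is itself induced by them (ENSMUSG00000021959, chr14:57689662-57758388, minus strand), had 101.6, 89.85 and 99.89 CPM in DdblGata1 libraries, against 70.85, 86.04 and 105.0 CPM in wild-type libraries in the same order. The DdblGata1 values lay within the wild-type range, whose low end was wild-type 1, and the log2 fold change was 0.15 ± 0.17, with a 95% interval of -0.24 to 0.55 (adjusted p = 0.748, edgeR).

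Ajuba, a LIM-domain scaffold that binds and restrains LATS kinases (ENSMUSG00000022178, chr14:54567472-54577558, minus strand), came nearest of the 10 to the unadjusted threshold. It had 20.50, 14.83 and 9.04 CPM in DdblGata1 libraries 4, 9 and 10, against 23.18, 17.76 and 24.74 CPM in wild-type libraries 1, 3 and 4. DdblGata1 9 and 10 lay below every wild-type library and DdblGata1 4 above wild-type 3. The mean was 14.8 ± 5.73 CPM in DdblGata1 and 21.9 ± 3.66 CPM in wild-type fibroblasts (SD, n = 3 each), a log2 fold change of -0.57 ± 0.30 with a 95% interval of -1.25 to 0.12 (adjusted p = 0.529, edgeR). The difference was -0.22 among longer-fragment and -0.61 among shorter-fragment libraries. Without DdblGata1 4 it was -0.88 ± 0.28 (adjusted p = 0.209, edgeR) and past the unadjusted threshold, as were 17.8% of all genes in that fit. Over all alternatives the adjusted p of Ajuba ranged from 0.209 to 0.901. Without DdblGata1 10 the difference was -0.32 ± 0.24.

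**Figure D2:**
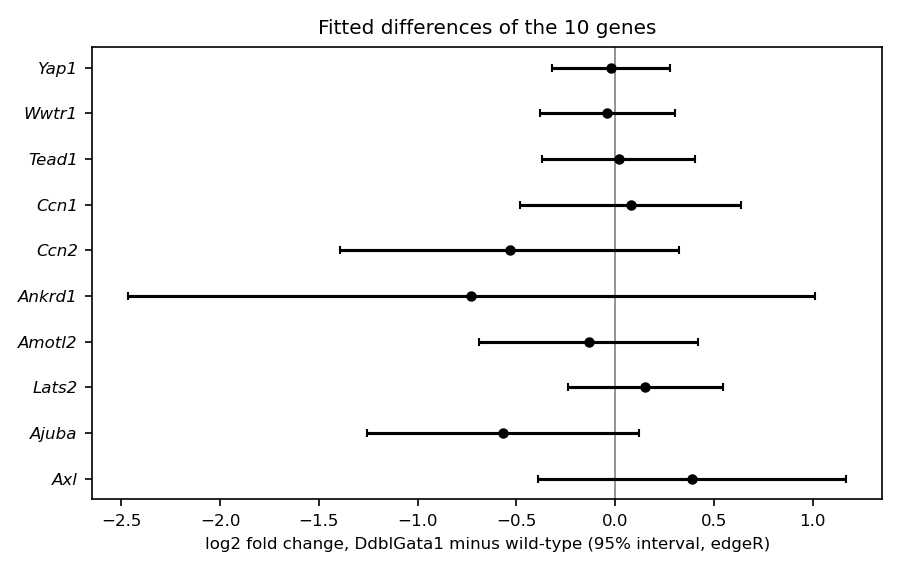
Log2 fold change of the 10 genes, DdblGata1 minus wild-type (x axis), with 95% intervals from the edgeR fit over all genes (3 libraries a genotype). Every interval includes 0; Yap1 has the narrowest, -0.32 to 0.28, and Ankrd1 the widest, -2.47 to 1.01.

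The libraries at the extremes were often the same. Wild-type 1 was the lowest of the 6 libraries for Wwtr1, Tead1, Amotl2, Lats2 and Axl, DdblGata1 10 for Ccn1, Ccn2, Ankrd1 and Ajuba, and DdblGata1 9 for Yap1. The highest was wild-type 4 for 5 genes, wild-type 3 for 4 and DdblGata1 4 for Ccn1. Deviations from the mean log2 CPM of the 6 libraries reached -1.24 for Ankrd1, -1.15 for Ccn2 and -0.94 for Ajuba in DdblGata1 10, -1.10 for Axl in wild-type 1, and 1.08 for Ankrd1 and 0.77 for Ccn2 in wild-type 4. In DdblGata1 10 the summed level of the 6 mesothelial markers was 513 CPM, against 394 and 285 CPM in DdblGata1 4 and 9 and 341 to 410 CPM in the wild-type libraries; its part in these levels was not tested.

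**Figure D3:**
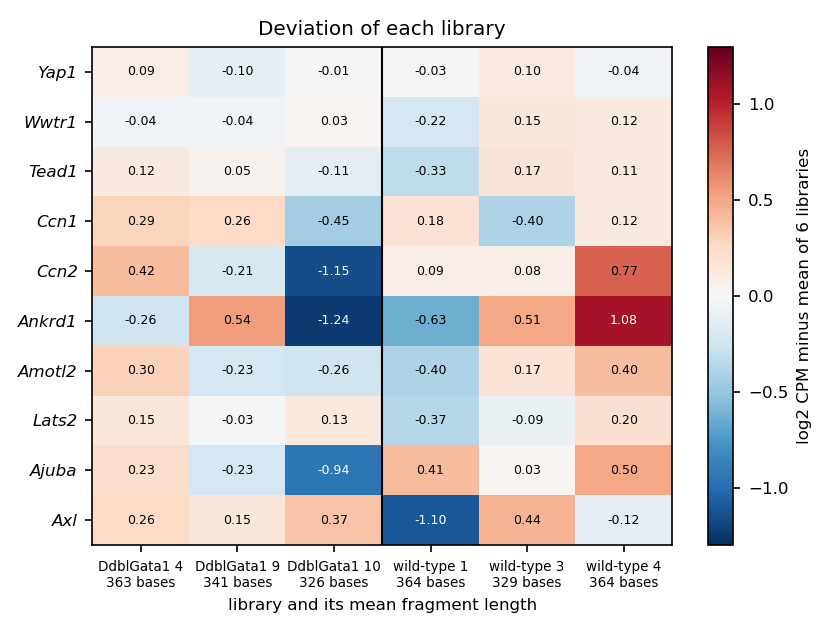
Log2 CPM of each gene minus its mean over the 6 libraries (colour and printed number), with the 3 DdblGata1 libraries left of the 3 wild-type libraries and each library's mean fragment length in bases below it. DdblGata1 10 is low for Ccn2 (-1.15), Ankrd1 (-1.24) and Ajuba (-0.94), wild-type 1 is low for Axl (-1.10), wild-type 4 is high for Ankrd1 (1.08), and Yap1 stays between -0.105 and 0.105.

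The genes whose profile over the 6 libraries came closest to those of the 3 classical targets were taken from genes with a mean log2 CPM of at least 3, by the root mean square difference of centred log2 CPM. For Ccn1 they were Utp20 (0.101), Gtpbp2 (0.111) and Ift22 (0.117). For Ccn2 they were Synpo (0.125), Adcy2 (0.136) and Gfra2 (0.140), and the first of these, the gene of the actin-associated protein synaptopodin, had 88.44, 45.07 and 29.32 CPM in DdblGata1 libraries, against 61.82, 67.45 and 112.2 CPM in wild-type libraries. For Ankrd1 the nearest were farther away, at 0.352 for Fam78b, 0.366 for Syp and 0.424 for Alpl. None of the 9 differed between genotypes at an unadjusted p of 0.05. They were picked for likeness to genes that did not pass it, so this was largely built in. These likenesses rest on 6 libraries and are descriptions.

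Transcript estimates showed which forms of these genes the fibroblasts carried. The shares below are parts of each gene's TPM over transcripts of at least 1000 bases, not over all its transcripts. Yap1 was mostly Yap1-202 (8 exons, 472 residues), at 54.4% to 68.0% of Yap1 TPM in DdblGata1 and 64.0% to 70.1% in wild-type libraries, followed by Yap1-201 (9 exons, 488 residues) at 27.8% to 45.2% and 21.3% to 33.9%. Tead1 was divided between Tead1-202 (411 residues) and Tead1-201 (436 residues); Tead1-202 held 42.6% to 58.8% in DdblGata1 and 44.6% to 80.7% in wild-type libraries, the highest in wild-type 1. Axl-201, which encodes 888 residues, held 75.1% to 85.6% of this long-transcript Axl TPM in DdblGata1 and 76.4% to 87.2% in wild-type libraries. Axl averaged 256.5 TPM over long transcripts and 370.3 TPM with shorter ones included, so the shares of all Axl TPM were smaller. A large part of Ajuba TPM, 40.3% to 57.5% in DdblGata1 and 45.7% to 63.5% in wild-type libraries, was assigned to Ajuba-202, a transcript with a retained intron and no coding sequence. Of the 7 genes among the 10 that could be tested for a change of transcript usage, none was called (edgeR diffSpliceDGE, adjusted p = 1.0 for each), with 0.254% of 9446 genes called over the whole files.

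The estimates for Amotl2 divided by fragment length rather than by genotype. Amotl2-201 (772 residues) had an estimated count of 0, 970 and 685 in DdblGata1 libraries 4, 9 and 10, against 0, 1908 and 0 in wild-type libraries 1, 3 and 4, so that it was listed at 0 in the 3 longer-fragment libraries. Amotl2-211 (805 residues) ran the other way, with 2520, 433 and 186 in DdblGata1 libraries, against 1461, 179 and 2302 in wild-type libraries. Amotl2-203 (586 residues) was present in all 6, at 1447 to 1531 in DdblGata1 and 1461 to 2023 in wild-type libraries.

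The wider pathway was described through lists of genes, by counts and by the median log2 fold change, which over all genes was -0.007. Unadjusted p under 0.05 was reached by 6.03% of all genes as higher and 4.23% as lower in DdblGata1, and no gene in any list passed the adjusted threshold in edgeR, in which no gene of the table did. DESeq2 called 4 immediate early genes, 3 contractile genes and 1 gene of the SRF list, and none in the other pathway lists. Of the 10 coactivator, TEAD and VGLL genes, 8 were measured, with a median of -0.06 and none past the unadjusted p. On the log2(TPM + 1) scale, where the median over all genes was 0.062, theirs was 0.03. The farthest of these was Vgll3, a TEAD-binding cofactor, at 0.58 ± 0.33 (adjusted p = 0.55, edgeR), with 72.09, 38.75 and 45.14 CPM in DdblGata1 libraries, against 20.56, 44.56 and 39.53 CPM in wild-type libraries. The kinase cascade had 25 genes, all measured, with a median of 0.06. In 6 the genotypes did not overlap, all higher in DdblGata1, as were 8.98% of all genes. The unadjusted p was passed by 2, both higher, which is 8.0% of the list beside 10.3% of all genes. The 2 were Taok3 at 0.43 ± 0.17 (adjusted p = 0.465) and Taok1 at 0.40 ± 0.16 (adjusted p = 0.483), kinases that can activate MST and LATS kinases. The core kinases Stk3, Stk4 and Lats1 were at 0.31, -0.20 and 0.19 and did not pass, and Stk4 reached 0.06 under another scaling.

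Of 22 junction and scaffold regulators, with a median of -0.08, 2 passed the unadjusted p as higher and 1 as lower. These 3 genes were 13.6% of the list, beside 10.3% of all genes. They were Fat4, Dchs2 and Fjx1: Fat and Dachsous proteins are giant cadherins that bind each other between neighbouring cells, and Fjx1 encodes a Golgi kinase that modifies them. The other Fat and Dachsous genes of the list, Fat1 and Dchs1, were at -0.05 and -0.25 and did not pass. Fat4 had 178.4, 215.1 and 250.1 CPM in DdblGata1 libraries, against 107.4, 157.8 and 140.8 CPM in wild-type libraries, and its log2 fold change was 0.66 ± 0.20 (adjusted p = 0.407, edgeR). Dchs2 had 70.33, 56.39 and 74.16 CPM in DdblGata1 libraries, against 23.21, 50.04 and 38.58 CPM in wild-type libraries, with a log2 fold change of 0.85 ± 0.27 (adjusted p = 0.433, edgeR). Fjx1 had 11.62, 10.56 and 6.65 CPM in DdblGata1 libraries, against 17.32, 13.73 and 13.97 CPM in wild-type libraries, with a log2 fold change of -0.64 ± 0.25 (adjusted p = 0.472, edgeR). None of the 3 overlapped between genotypes, as was so for 16.3% of all genes, and none passed the adjusted threshold. Their signs were the same under 5 other scalings and units, with ranges of 0.66 to 0.71 for Fat4, 0.84 to 0.86 for Dchs2 and -0.68 to -0.49 for Fjx1, but on TPM Fjx1 no longer passed the unadjusted p.

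A signature of 22 YAP and TAZ targets, drawn up in human tumours and read here through the mouse genes of the same name, contains 6 of the 10 genes. The other 16 comprised 3 genes past the unadjusted p as higher and 3 as lower in DdblGata1, 37.5% of the 16 beside 10.3% of all genes; as none of the 6 passed, the share of the whole signature was 27.3%. With DESeq2's size factors in place of TMM the whole signature had 1 higher and 3 lower. The higher were Asap1 at 0.53 ± 0.18, Ccdc80 at 0.53 ± 0.23 and Rbms3 at 0.44 ± 0.19. The lower were Fjx1, given above, Igfbp3 at -0.50 ± 0.21 and Arhgef17 at -0.33 ± 0.14 (adjusted p between 0.44 and 0.484 for the 6 by edgeR); Rbms3 and Arhgef17 were added to complete these counts after their values were seen. Ccdc80, a secreted matrix protein, had 910.5, 911.7 and 1303 CPM in DdblGata1 libraries, against 559.2, 833.0 and 771.5 CPM in wild-type libraries. Igfbp3, a secreted binder of insulin-like growth factors, had 277.0, 275.7 and 263.4 CPM in DdblGata1 libraries, against 308.1, 332.3 and 513.3 CPM in wild-type libraries. The whole signature's median was -0.09, and 0.01 on the log2(TPM + 1) scale, beside -0.007 and 0.062 over all genes. On log2(TPM + 1) the counts past the unadjusted p were 3 higher and 0 lower (4 and 0 over long transcripts). In both units its genes lay on both sides of 0.

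Of the 6 CCN genes, 5 were measured. Ccn4, which encodes WISP1, had 46.50, 36.17 and 32.38 CPM in DdblGata1 libraries, against 45.81, 55.18 and 56.35 CPM in wild-type libraries, with a log2 fold change of -0.45 ± 0.18 (adjusted p = 0.478, edgeR). Ccn3, at 0.42 ± 0.29, is another secreted CCN protein and had 345 ± 29.3 CPM in DdblGata1 and 258 ± 113 CPM in wild-type fibroblasts (SD, n = 3 each).

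**Figure D4:**
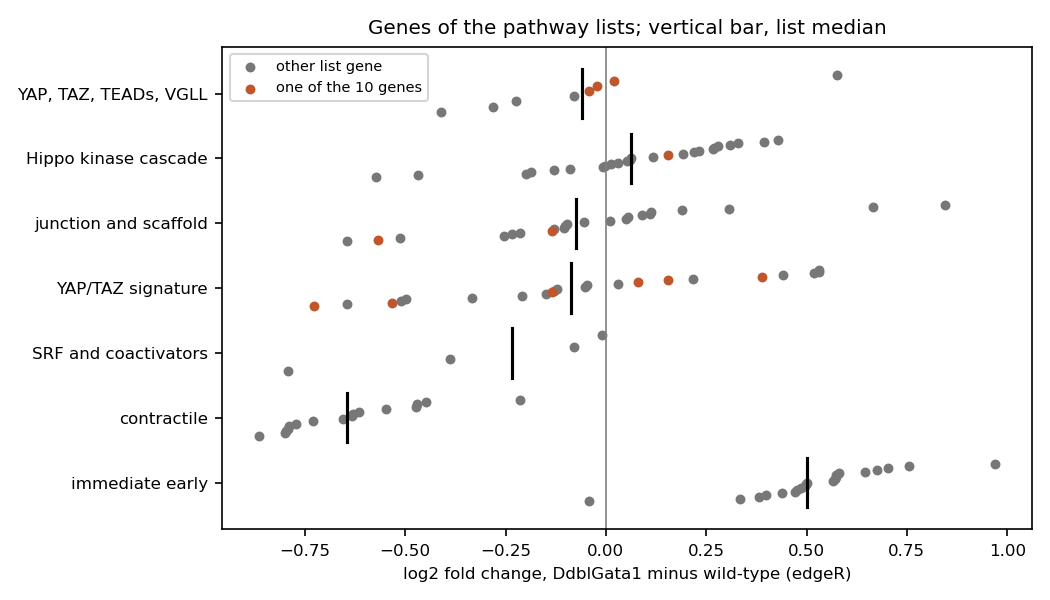
Log2 fold change, DdblGata1 minus wild-type (x axis, edgeR), of each measured gene in 7 lists; orange points are among the 10 genes, grey points are other list genes and black bars are list medians. The Hippo lists and the YAP/TAZ signature lie on both sides of 0, all 16 contractile genes lie below it and 20 of 21 immediate early genes lie above it.

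Serum response factor (SRF), with the coactivators encoded by Mrtfa and Mrtfb, responds to actin assembly as YAP does. Some of the genes it is known to control, those of smooth muscle contraction, are described for comparison. They do not stand for all genes controlled by SRF. Srf had 48.15, 43.55 and 34.97 CPM in DdblGata1 libraries, against 85.40, 67.18 and 66.79 CPM in wild-type libraries. These CPM did not overlap, being lower in DdblGata1, as was so for 7.34% of all genes. The log2 fold change of Srf was -0.79 ± 0.18 (adjusted p = 0.384, edgeR). Its difference was -0.42 on the log2(TPM + 1) scale over long transcripts, where it did not pass the unadjusted p. There the genotypes overlapped, with 28.09 TPM in DdblGata1 4 and 27.75 TPM in wild-type 4. The coactivator genes Myocd, Mrtfa and Mrtfb were at -0.39, -0.08 and -0.01 and did not pass the unadjusted p; Mrtfb turned to 0.07 on TPM. Of 16 smooth muscle contractile genes, a list chosen with earlier results of these data known, all were below 0. Their median was -0.64 (-0.85 to -0.52 when each library was left out in turn). The unadjusted p was passed by 9, as lower, beside 4.23% of all genes. In 4 the genotypes did not overlap, as lower, beside 7.34% of all genes. The 16 genes summed to 12500 to 19000 CPM in DdblGata1 and 17700 to 28800 CPM in wild-type libraries, ranges that overlapped. The genes named here are the 4 without overlap. Desmin (Des) had 443.7, 587.2 and 482.9 CPM in DdblGata1 libraries, against 983.4, 945.8 and 653.5 CPM in wild-type libraries. Synm, Csrp1 and Flna, which encode synemin, a LIM protein of muscle and filamin A, were at -0.79, -0.66 and -0.86; on the log2(TPM + 1) scale over long transcripts Flna was at -0.36 and did not pass the unadjusted p. Alongside, 4 of 6 pericyte markers passed the unadjusted p as lower, beside the same 4.23% of all genes. The 6 summed to 1500 to 1620 CPM in DdblGata1 and 1960 to 2460 CPM in wild-type libraries. Their part in the contractile values was not tested.

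The immediate early genes, which respond within minutes to growth factors and to tissue dissociation, lay on the other side. Of 21, 20 were above 0, with a median of 0.50 (0.39 to 0.60 when each library was left out in turn). The unadjusted p was passed by 16, all higher in DdblGata1, beside 6.03% of all genes. This list, too, was chosen with earlier results of these data known. Zfp36, a regulator of mRNA decay, had 584.1, 914.0 and 732.4 CPM in DdblGata1 libraries, against 365.4, 358.0 and 415.4 CPM in wild-type libraries, and its log2 fold change was 0.97 ± 0.20 (adjusted p = 0.384, edgeR). Socs3, Klf6 and Egr1, a cytokine feedback inhibitor and a pair of zinc-finger transcription factors, were at 0.70, 0.65 and 0.57. The 21 genes summed to 9270 to 11300 CPM in DdblGata1 and 6820 to 7040 CPM in wild-type libraries. Ccn1 is also known as a rapidly serum-induced gene; its log2 fold change, given above, was 0.08 ± 0.24.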

How the data were processed

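Genotypes come from the labels. Per the submitters' processing notes, bcl2fastq 2.2, kallisto, R 4.2.2 and DESeq2 were used with mm10 and GRCm38.p6; which step each served is not stated there. Libraries were stranded (TruSeq, 100 ng of RNA), per the labels. The gene table deposited by the authors holds estimated counts rounded to whole numbers for 15238 genes, each with at least 10 counts in at least 3 libraries. The estimated counts, TPM and effective lengths (other values, in bases) per transcript were deposited by the authors in 1 file a library; 113492 of 115270 transcripts matched GENCODE M21. The table equalled length-scaled TPM for 99.6% of values within 1% plus 1 count (plain sums, 26.3%). The deposited sample sheet holds surrogate variables, scores the authors computed, and size factors, ratios the authors computed between libraries.

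The gene table was tested with edgeR 4.0.16 (R 4.3.3; TMM, filterByExpr, which removed 0 genes, robust quasi-likelihood, Benjamini-Hochberg). DESeq2 1.42.0 and limma 3.58.1 (pseudocount 1 on TPM) were alternatives. SEs are the log2 fold change divided by the square root of F. CPM are TMM-scaled; log2 CPM uses a prior count of 2. An exact permutation test of 3 against 3 libraries cannot go below p = 0.1, so none was used. Transcript usage was tested on 33123 transcripts. The fits were tested on simulated data. Fragment length was read from lengths minus effective lengths, with the classes divided at 350 bases. Named list genes were up to 4 a list by smallest p. The 10 genes and the lists were chosen with earlier results of these data known.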

Additional observations from a re-analysis of the deposited data

How the results depend on the processing

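Across 17 alternatives the fold changes of the 10 genes gave 169 values; 153 kept their direction and 16 turned it, these 16 being in Yap1, Wwtr1, Tead1, Ccn1 or Amotl2, and the lowest adjusted p was 0.209. Yap1 and Wwtr1 turned to 0.058 and 0.050 on log2(TPM + 1), and to 0.062 and 0.050 on TPM of long transcripts, an alternative chosen after seeing the data like the fragment-length covariate; Tead1 turned to -0.022 with the deposited surrogate variables. The median over all genes was 0.062 on log2(TPM + 1), against -0.007 in the edgeR fit. Leaving out each library in turn gave -0.072 to 0.026 for Yap1, -0.172 to 0.024 for Wwtr1, -0.143 to 0.109 for Tead1, -0.081 to 0.269 for Ccn1 and -0.351 to 0.048 for Amotl2. It gave 0 to 2 of the 10 genes past an unadjusted p, where 818 to 2715 of all genes passed. It also gave 0 to 2 without overlap. The 16.3% of all genes without overlap holds for all 6 libraries, so it is no reference for these smaller sets. No conclusion is drawn from that count. TPM of long transcripts put 1 gene, Axl, past the unadjusted p and without overlap, beside 12.4% and 18.7% of genes. Over all genes DESeq2 called 216 and the leave-outs 0 to 1, against 0 in edgeR. The list medians moved for the kinase cascade (0.140 on TPM, 0.150 on TPM of long transcripts, 0.116 with surrogate variables, 0.121 with fragment class, 0.055 to 0.138 in the leave-outs), the signature (0.011 on TPM, 0.040 on TPM of long transcripts), SRF and its coactivators (-0.128 on TPM, -0.104 on TPM of long transcripts, -0.333 to -0.144 in the leave-outs) and the TAM list (-0.107 to 0.080). Transcript usage was called for 24 genes, 47 by the F test, 0 with a share of at least 10%, and 2 to 70 in the leave-outs. The causes were not tested. Without the filter nothing changed, and Ankrd1 fell below the stricter minimum, a mean log2 CPM of 1. No paired analysis was possible because the labels name no pairing of the libraries. With 3 libraries a genotype, intervals of the size shown for Ccn2, Ajuba and Axl limit what can be seen.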
